A study of Mus musculus with 9 samples.

Results

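The respiratory chain genes are the nuclear genes for the subunits of the oxidative phosphorylation complexes, with some of their assembly factors. They were taken from RefSeq for mm10 by symbol, as the protein-coding genes on the nuclear chromosomes whose names start with Nduf, Sdha to Sdhd, Uqcr, Cox4 to Cox8 or Atp5. The rule found 100 genes among 21887 nuclear protein-coding genes. Complex I (NADH dehydrogenase) had 49 of them, complex II (succinate dehydrogenase) 8, complex III (cytochrome bc1) 8, complex IV (cytochrome c oxidase) 18 and complex V (ATP synthase) 17. Of the 100 genes, 88 are named as subunits or their isoforms and 12 as assembly factors, the 8 Ndufaf genes and the 4 Sdhaf genes. Ndufa4, counted here with complex I by its symbol, is known as a subunit of complex IV.

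Complexes I and II pass electrons to ubiquinone, complex III hands them to cytochrome c, and complex IV transfers them to oxygen. Complexes I, III and IV pump protons as they do so, and complex V uses the proton gradient to make ATP. Every complex except complex II also holds subunits encoded in mitochondrial DNA, which the rule leaves out. Long-term haematopoietic stem cells are known for relying on glycolysis, with a greater use of the respiratory chain as they leave quiescence and differentiate.

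The chromatin was profiled by CUT&Tag, in which a transposase tethered to an antibody cuts and tags the DNA beside the bound protein, and the deposited data are peak lists. The cKO mice carry Dekfl/fl with Tie2-Cre, which is driven by the Tie2 promoter, active in endothelial and blood-forming cells, and the fl mice carry Dekfl/fl with no Cre. Both have the floxed Dek alleles on a C57BL/6 background and were 12 weeks old. H3K27ac and H3K4me3 were mapped in about 50000 sorted LSK cells (lineage-negative, Sca-1+, c-Kit+ stem and progenitor cells) per library. H3K9ac was mapped in about 20000 sorted haematopoietic stem cells (HSC). Each of these 3 marks had 1 cKO and 1 fl library, so differences between genotypes were not tested and have no replicate check, and effects of Cre and of Dek loss cannot be told apart. DEK, a chromatin-bound protein, was mapped in 3 libraries of fl HSC.

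The lists held 16331 peaks in cKO and 10494 in fl for H3K27ac, 10159 in cKO and 10514 in fl for H3K4me3, and 3431 in cKO and 2172 in fl for H3K9ac. The DEK lists held 2054 to 6146 peaks. The read depth of the libraries is unknown. A gene was called marked where a peak touched 1 kb on either side of an annotated gene end. Strength is given as the authors' own −log10 q of a peak (its false discovery rate, larger being stronger) or as a percentile, the share of peaks in the same list that rank below it. These values and the authors' fold enrichment order peaks within a list only. H3K4me3 peaks were mostly there (80.7% in cKO and 79.9% in fl), H3K27ac peaks less so (51.5% and 38.8%), and few H3K9ac (6.15% and 5.85%) or DEK peaks (2.38% to 3.17%) were. The targeted gene Dek had 1 H3K4me3 peak in cKO (−log10 q 61.6) and 1 in fl (77.4), and 1 H3K27ac peak in cKO (20.4) and 0 in fl; a peak list is no check of the deletion. H3K4me3 marked 7 of 10 stem and progenitor genes in cKO and 7 in fl, against 42.7% and 43.8% of all genes. In both genotypes it marked 1 of 8 genes of mature lineages (Klf1, an erythroid transcription factor) and 0 of 4 endothelial genes. H3K27ac marked 7 of the 10 stem and progenitor genes in cKO and 1 in fl, against 42.5% and 21.9% of all genes. It marked 2 and 1 of the 8 lineage genes, Klf1 in both and Cd79a in cKO only (−log10 q 39.8, percentile 88.6). Of the 4 endothelial genes it marked 1 (Kdr) in cKO and 0 in fl. H3K9ac marked Itgam, of the lineage genes, and Kdr in cKO only (−log10 q 4.49 and 1.7). It marked 0 of the stem and progenitor genes in either genotype. The part of these differences in the results below was not tested.

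The promoters of the chain are the sequences on which the marks lay or were missing, and 2 pairs of isoforms that differ in mark are shown as examples, chosen after their values were seen. Cox8a and Cox8b encode alternative forms of complex IV subunit 8, and Cox7a2 and Cox7a1 alternative forms of subunit 7a. In both pairs Cox8b and Cox7a1 are the forms of heart and skeletal muscle. The 250 bases before the annotated start, from RefSeq for GRCm38.p6 and 5′ to 3′ on the gene's own strand, are given with each CpG dinucleotide in capitals.
Cox8a (chr19:7217617-7217866, minus strand): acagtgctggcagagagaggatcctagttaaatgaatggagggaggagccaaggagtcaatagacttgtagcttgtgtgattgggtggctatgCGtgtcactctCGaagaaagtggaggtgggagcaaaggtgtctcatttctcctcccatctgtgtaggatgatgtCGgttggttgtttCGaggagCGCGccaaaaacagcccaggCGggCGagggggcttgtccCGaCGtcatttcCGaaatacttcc
Cox8b (chr7:140900447-140900696, minus strand): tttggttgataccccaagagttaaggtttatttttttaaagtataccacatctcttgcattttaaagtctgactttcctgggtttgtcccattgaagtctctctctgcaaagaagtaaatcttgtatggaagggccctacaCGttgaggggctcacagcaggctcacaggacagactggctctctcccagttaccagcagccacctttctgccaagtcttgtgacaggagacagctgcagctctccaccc
Cox7a2 (chr9:79759854-79760103, minus strand): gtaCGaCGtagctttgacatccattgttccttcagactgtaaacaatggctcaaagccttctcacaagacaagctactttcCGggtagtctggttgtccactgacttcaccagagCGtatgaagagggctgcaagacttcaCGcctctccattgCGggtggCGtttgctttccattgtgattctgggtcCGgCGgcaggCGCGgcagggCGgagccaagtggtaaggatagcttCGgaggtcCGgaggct
Cox7a1 (chr7:30183921-30184170, plus strand): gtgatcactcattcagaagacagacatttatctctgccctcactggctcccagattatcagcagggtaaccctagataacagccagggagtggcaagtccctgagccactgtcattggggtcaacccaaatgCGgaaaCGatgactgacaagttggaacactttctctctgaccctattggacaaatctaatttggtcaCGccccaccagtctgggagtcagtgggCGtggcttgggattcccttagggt
These stretches held 11 CpG in Cox8a, which carried H3K4me3 and H3K27ac in both genotypes, and 1 CpG in Cox8b, which carried neither mark. They held 14 CpG in Cox7a2, whose start had an H3K4me3 peak in both genotypes, and 4 CpG in Cox7a1, which carried neither mark. Cox4i1 and Cox6a1 carried both marks in both genotypes, and their alternative forms Cox4i2 and Cox6a2 carried neither. No promoter was listed for Cox4i1, Cox4i2 or Cox6a2, so CpG could not be compared in those pairs. The pairs of Cox7b with Cox7b2 and Cox6b1 with Cox6b2 did not differ in mark. Over 300 bases, the widely expressed Cox7b had 5 CpG and the testis form Cox7b2 had 10, both without H3K4me3, and Cox6b1 had 17 and the testis form Cox6b2 10, both with H3K4me3 in both genotypes.

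H3K4me3, a mark of active and poised promoters, covered most of the chain in both genotypes. A gene-end peak was present in both lists at 87 of 100 genes, against 41.1% of all genes. It was present in cKO at 87 (42.7% of all genes) and in fl at 88 (43.8% of all genes), in cKO only at 0 (1.59% of all genes), in fl only at 1 (2.75% of all genes), and in neither at 12 (54.6% of all genes). By complex, both lists had the peak at 46 of 49 genes of complex I, 8 of 8 of complex II, 8 of 8 of complex III, 9 of 18 of complex IV and 16 of 17 of complex V. All 12 assembly factors carried it in both lists.

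The gene with a gene-end peak in fl only was Atp5d, the delta subunit of the ATP synthase F1 part. Its annotated starts lie inside its annotated span, away from both outer ends. At the outer end fl had a peak of −log10 q 11.1 and cKO had none. At the inner start, both had one, of −log10 q 13.4 in cKO (chr10:80142256-80142733) and 6.73 in fl (chr10:80141777-80142646). When only annotated starts were used, or any peak in the gene, Atp5d counted as marked in both genotypes and 0 genes of the chain were marked in fl only.

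**Figure D1:**
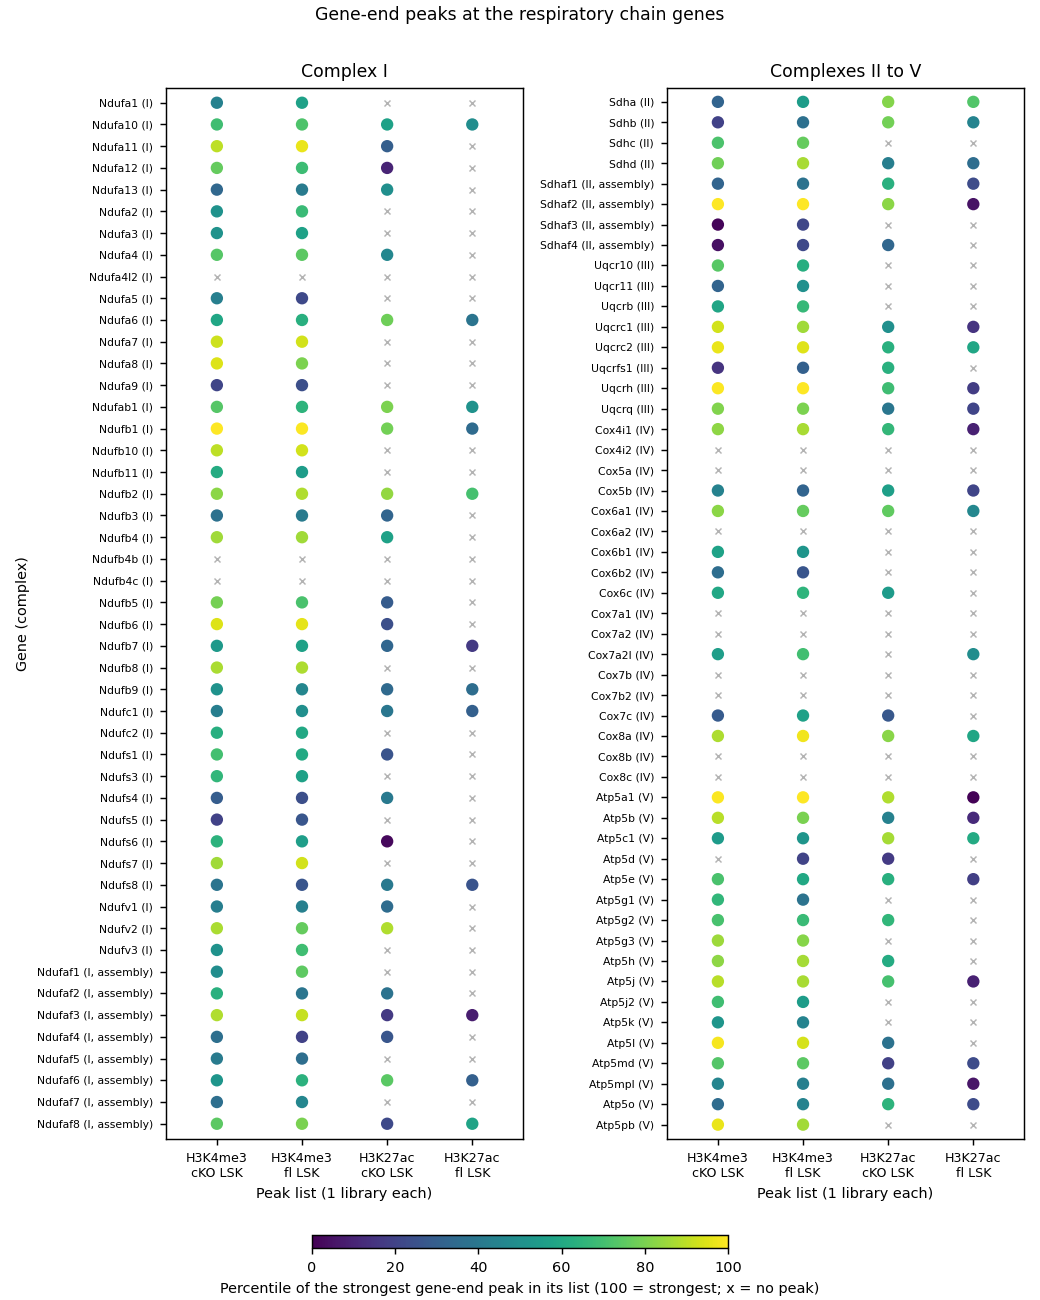
Within-list percentile of the strongest gene-end peak for the respiratory chain genes (rows, with the complex in brackets; 1 gene of the 100 is not drawn) in the H3K4me3 and H3K27ac lists of cKO and fl LSK cells (columns, 1 library each); 100 is the strongest peak of a list and a cross means no gene-end peak. Over the 100 genes H3K4me3 is present in both lists at 87, while H3K27ac is present at 56 in cKO and 34 in fl, and the gaps in H3K4me3 lie mostly in complex IV.

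The 12 genes with no H3K4me3 at either gene end in either genotype were Cox4i2, Cox5a, Cox6a2, Cox7a1, Cox7a2, Cox7b, Cox7b2, Cox8b and Cox8c of complex IV, and Ndufa4l2, Ndufb4b and Ndufb4c of complex I. Complex IV is the complex with the most tissue-restricted isoforms. Of 7 such isoform genes 6 had no peak: Cox4i2, a form of lung, Cox6a2, Cox7a1 and Cox8b of heart and muscle, and Cox7b2 and Cox8c of testis. The seventh, Cox6b2, a testis form, carried H3K4me3 in both, with −log10 q 14.6 in cKO and 13.4 in fl. Its window is shared with the neighbouring gene Fam71e2, so the peak cannot be assigned between them. Ndufa4l2, known as a hypoxia-induced relative of Ndufa4, and Ndufb4b and Ndufb4c, copies named after Ndufb4, were unmarked, whereas Ndufa4 and Ndufb4 were marked in both.

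Of the widely expressed forms in that list, Cox5a and Cox7a2 had their H3K4me3 peak inside the annotated gene. At Cox5a, the subunit 5a gene, the peak had −log10 q 63.1 in cKO (percentile 96.7 of its list) and 81.2 in fl (percentile 97.2). H3K27ac lay on the same place, with −log10 q 22 in cKO and 9.44 in fl. At Cox7a2 the H3K4me3 peak was weaker, with −log10 q 6.78 in cKO and 14.4 in fl, and there was no H3K27ac peak. Cox7b, on the X chromosome, had no H3K4me3 peak anywhere in the gene in either list. With any peak in the gene counted, the genes without H3K4me3 in both lists were therefore the 6 isoform genes, Ndufa4l2, Ndufb4b, Ndufb4c and Cox7b.

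The promoter sequences differed between these classes. A promoter of 300 bases, 250 before and 50 after the start, was listed by RefSeq for 82 of the 100 genes. The median was 20 CpG in these 82, against 15 in 17492 promoters overall and 24 in 7333 promoters of genes with H3K4me3 in both genotypes. The 74 respiratory chain genes with H3K4me3 in both genotypes had a median of 20 CpG, and the 7 genes with no gene-end H3K4me3 a median of 7. Among those 7, Cox5a and Cox7a2, the ones with an inner H3K4me3 peak, had the most CpG.

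**Figure D2:**
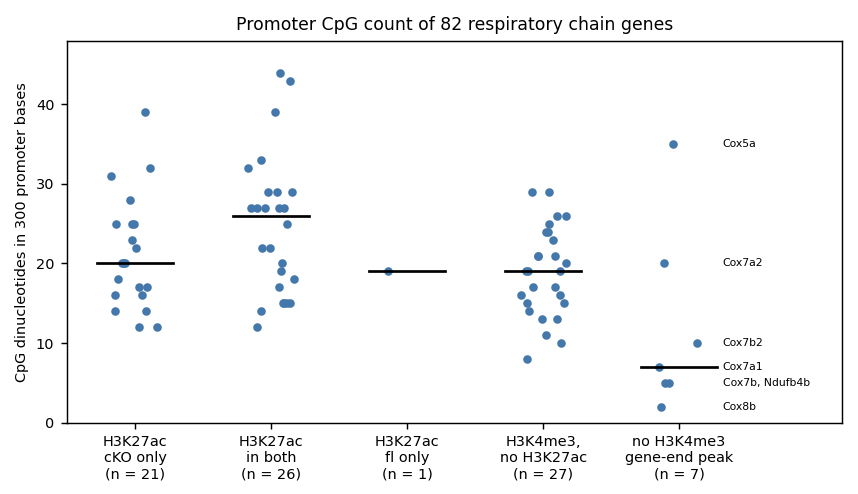
CpG dinucleotides in 300 promoter bases (y axis) of the 82 respiratory chain genes with a promoter in the table, by histone mark class (x axis); each point is a gene and the bar is the class median, which is 20 for H3K27ac in cKO only, 26 for H3K27ac in both, 19 for H3K4me3 without H3K27ac and 7 for genes with no H3K4me3 at a gene end. Points are spread sideways at random to keep them apart.

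Marked promoters of the chain held their H3K4me3 close to the start. The summit of the strongest peak lay within 500 bp of the nearest annotated start at 94.6% of 74 genes in cKO and 93.3% of 75 genes in fl, against 82.1% and 82.3% of all genes with a peak. H3K27ac summits lay within 500 bp at 91.5% of 47 genes in cKO and 92.6% of 27 genes in fl, against 84.3% and 84.7% of all genes. The 2 marks coincided: the H3K27ac peak overlapped an H3K4me3 peak at 54 of 56 genes in cKO and 34 of 34 in fl.

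Within its list, the H3K4me3 of the chain was of middling to high strength. The median percentile was 64.3 in cKO and 63.96 in fl over the 87 genes with a peak in both, against 58.38 in cKO and 59.8 in fl over 8993 such genes overall. The strongest in cKO were Sdhaf2, which attaches FAD to Sdha (99.8 in cKO and 99.8 in fl), Ndufb1, an accessory subunit (99.7 and 99.6), and Uqcrh, the hinge protein of complex III (99.6 and 99.9). Each of these promoters faces another gene, Cpsf7, Cpsf2 and Lrrc41 in that order, and peaks in a shared window cannot be assigned. In complex V the range in cKO ran from Atp5a1, the alpha subunit, at 99.5 in cKO and 99.8 in fl to Atp5o, the OSCP subunit, at 34.8 and 44.3. In complex IV it ran from Cox8a at 87.5 in cKO and 97.7 in fl to Cox7c at 28.2 and 57. The lowest of the other complexes were Ndufs5 of complex I at 19.7 in cKO and 26.7 in fl, Uqcrfs1, the Rieske iron-sulfur protein of complex III, at 15.2 and 30.3, and Sdhaf3, a complex II assembly factor, at 1.42 and 21.4.

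The H3K4me3 lists of both genotypes were of similar length, and percentiles moved in either direction. The percentile was higher in cKO at 41 of 87 genes, or 47.1%, against 45.2% of all genes. Atp5g1, a c-ring subunit, stood at 65.7 in cKO and 38.1 in fl, and Ndufaf2, a complex I assembly factor, at 63.3 and 38.8. The differences the other way were largest at Cox7c, with 28.2 in cKO and 57 in fl, Ndufaf1, an assembly factor, with 48.8 and 75.2, and Sdha, the flavoprotein of complex II, with 31.7 and 54.8. Complex II had lower percentiles in cKO at 7 of 8 genes (median 31.67 in cKO and 46.25 in fl), and complex V had higher ones at 12 of 16 (median 72.06 and 71.21). Groups of 8 to 46 genes from 1 library per genotype do not show whether the complexes differ.

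H3K4me3 peaks were slightly narrower in cKO at most genes of the chain, and also at most of all genes. The summed width at gene ends was larger in cKO at 25 of 87 genes, or 28.7%, against 35.3% of all genes. It was smaller in cKO at 62, or 71.3%, against 63.1% of all genes. The median ratio of cKO to fl was 0.9467, against 0.9561 over all genes, and the median width was 779 bp in cKO and 784 bp in fl. The widest in cKO were Uqcrh with 2059 bp in cKO and 1908 bp in fl, Ndufb10 with 1964 and 2132 bp, and Atp5j, the F6 coupling subunit, with 1572 and 1614 bp. All of these windows are shared with a neighbour. The strongest H3K4me3 peak at Ndufb10 lay outside the annotated gene and was 1509 bp wide in cKO and 1661 bp in fl. Its summit was 4473 bp from the annotated start in cKO and 4280 bp in fl. Atp5b, the catalytic beta subunit, had 1009 bp in cKO and 3342 bp in fl, a ratio of 0.302, and its window is shared with Baz2a. The fl sum holds 2 peaks and the cKO sum 1, and the strongest peaks alone were 1009 bp wide in cKO and 1167 bp in fl.

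**Figure D3:**
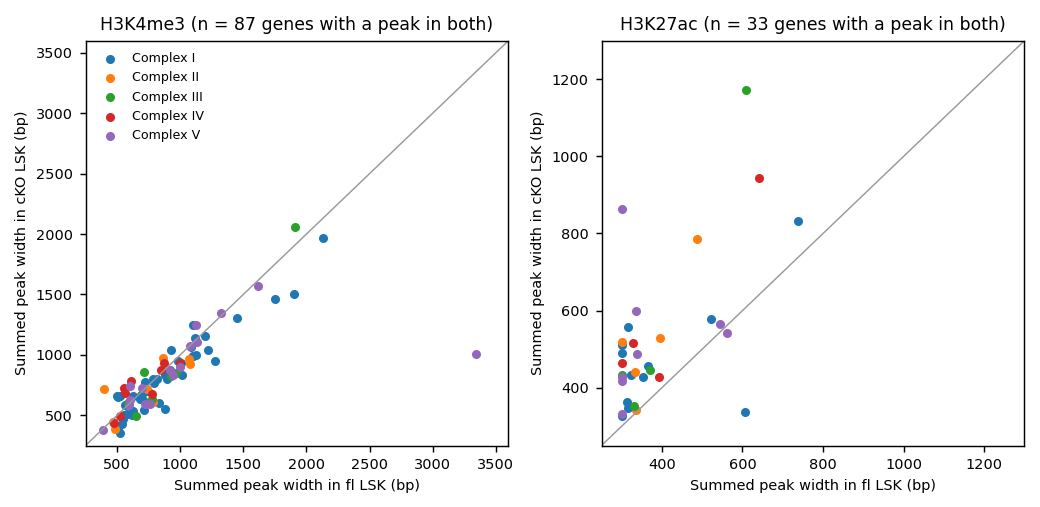
Summed width of gene-end peaks in fl LSK (x axis, bp) and cKO LSK (y axis, bp) for H3K4me3 (left, 87 genes) and H3K27ac (right, 33 genes) at respiratory chain genes with a peak in both lists, coloured by complex, with a line of equal width. H3K27ac points lie above the line at 31 of 33 genes, and H3K4me3 points lie above it at 25 of 87, with Atp5b far below.

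H3K27ac, an acetylation mark of active promoters and enhancers, was found at more of these genes in cKO. A gene-end peak was present at 56 of 100 genes in cKO (42.5% of all genes) and at 34 in fl (21.9% of all genes). It was in cKO only at 23 genes (20.9% of all genes), in both at 33 (21.5% of all genes), in fl only at 1 (0.384% of all genes) and in neither at 43 (57.2% of all genes). The share in cKO only was thus close to that of all genes, and the cKO list was the longer by 16331 to 10494 peaks. With the cKO list shortened to its 10494 strongest peaks, 11 genes were in cKO only, against 11% of all genes, 6 in fl only, against 1.93%, and 28 in both, against 20%. The 6 were Cox7a2l and Atp5md, Ndufaf3, Ndufaf8, Ndufb7 and Ndufb9, and all but Cox7a2l had a peak in the full cKO list that ranked below its 10494 strongest.

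The genes in cKO only lay in every complex, with 15 of 49 in complex I, 1 of 8 in complex II, 1 of 8 in complex III, 2 of 18 in complex IV and 4 of 17 in complex V. In complex I, H3K27ac was thus present at 27 genes in cKO and 12 in fl. These counts use the full lists and move with their length. With lists of equal length, the complex I genes in cKO only were Ndufa13, Ndufa4, Ndufaf2, Ndufb4, Ndufs4 and Ndufv2. Those in fl only were Ndufaf3, Ndufaf8, Ndufb7 and Ndufb9. The numbers with a peak in cKO and in fl were 6 and 5 in complex II, 5 and 4 in complex III, 6 and 5 in complex IV, and 12 and 8 in complex V. Of the 12 assembly factors 8 carried H3K27ac in cKO and 5 in fl.

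**Figure D4:**
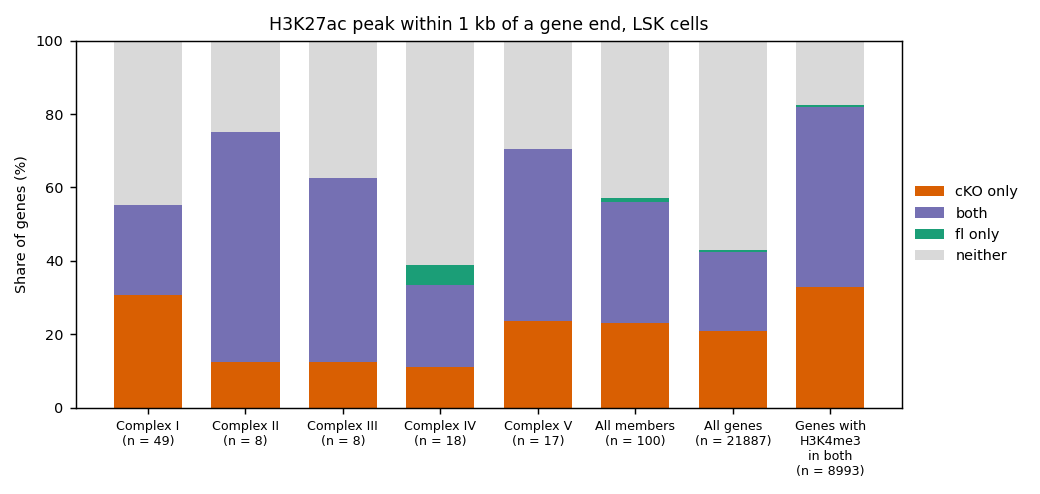
Share of genes (y axis, %) with an H3K27ac peak within 1 kb of a gene end in cKO only, in both, in fl only or in neither, for the respiratory chain genes by complex and together, for all 21887 genes, and for the 8993 genes with H3K4me3 in both genotypes (x axis). The share in cKO only is 23% of the respiratory chain genes and 20.9% of all genes, and among genes with H3K4me3 it is 32.9%. The full lists are used, of 16331 peaks in cKO and 10494 in fl.

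The strongest peak in cKO only was at Ndufv2, the 24-kDa iron-sulfur subunit in the NADH-binding arm of complex I. It had −log10 q 39, a fold enrichment of 14.7 over the caller's background and a width of 635 bp, at percentile 87.9 of the cKO list. Its window is shared with Ankrd12. Next came Atp5g2, a c-ring subunit (−log10 q 24.6), Uqcrfs1 (23.5), Atp5h, the peripheral stalk subunit d (22.5), Ndufb4 (20.9), Cox6c (19.8), Ndufa13, also known as GRIM-19 (18), Ndufa4 (16.9), Ndufs4 (14.9), and Atp5l and Ndufaf2 (14.1 each). The remaining 12 were Ndufv1, Sdhaf4, Ndufb3, Ndufa11, Ndufb5, Cox7c, Ndufaf4, Ndufs1, Ndufb6, Atp5d, Ndufa12 and Ndufs6, with −log10 q from 13.4 at Ndufv1 to 5.36 at Ndufs6. Of the 23 genes in cKO only, 15 have windows shared with another gene, where peaks cannot be assigned. Besides Ndufv2, they include Atp5h, Cox6c, Ndufa13, Ndufa4 and Ndufaf2.

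The gene in fl only was Cox7a2l, known for its role in joining complexes III and IV into supercomplexes. Its fl peak had −log10 q 10.5, a fold of 8.63 and a width of 346 bp, at percentile 48.8. H3K4me3 was present there in both lists, with −log10 q 22.5 in cKO and 36.4 in fl.

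At the 33 genes with H3K27ac in both lists, peaks were wider in cKO at 31, or 93.9%, against 94.7% of all genes. The median width was 463 bp in cKO and 332 bp in fl, with a median ratio of 1.338, against 1.44 over all genes. Uqcrh was the widest with 1171 bp in cKO and 608 bp in fl, Ndufa13 had 1013 bp in cKO and no peak in fl, and Cox4i1, the main form of subunit 4, had 943 and 641 bp. The windows of Uqcrh, Ndufa13 and Cox4i1 are shared with other genes, so these widths cannot be assigned. The largest ratio was that of Atp5j, with 863 bp in cKO and 301 bp in fl, in a window shared with Gabpa. In fl, 301 bp was the lowest width over all genes, and also the first quartile of the 34 genes of the chain with a peak. The lowest width over all genes in cKO was 303 bp. Narrower in cKO were Ndufaf3, with 336 bp in cKO and 607 bp in fl, and Atp5c1, with 542 and 561 bp.

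Percentiles of the H3K27ac peaks were higher in cKO at 30 of these 33 genes, or 90.9%, against 92.1% of all genes. The count was 32 when peaks were ranked by fold enrichment, and 23 when they were ranked among gene-end peaks only. The lists differ in length, so these percentiles are given side by side and read as no change. The highest in cKO were Atp5a1 and Ndufv2 at 87.9 each and Atp5c1, the gamma subunit, at 86.4. In fl, Atp5a1 stood at 0.624 and Atp5c1 at 60.7. The 3 largest differences were at Atp5a1, at Sdhaf2 (82.6 in cKO and 4.74 in fl) and at Atp5j (70.6 and 9.37). All of these windows are shared with a neighbour, Haus1 in the case of Atp5a1. The fl peak of Atp5a1 was weak, with −log10 q 3.61, and at a −log10 q of at least 5 the gene was in cKO only. Ndufaf8 at 22.2 in cKO and 58 in fl, Atp5md at 19.4 and 23 and Ndufb9 at 34.1 and 35.5 were the 3 genes with the lower percentile in cKO.

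Set beside genes with the same promoter mark, a smaller share of the chain had H3K27ac in these lists. Among the 87 respiratory chain genes with H3K4me3 in both genotypes, 55 (63.2%) carried H3K27ac in cKO and 34 (39.1%) in fl, against 82% and 49.7% of 8993 genes with H3K4me3 in both. Neither list had the mark at 31 of the 87 (35.6%), against 17.5% of those genes. It was in cKO only at 22 (25.3%), against 32.9%, and in both at 33 (37.9%), against 49.1%. Counting peaks at annotated starts only, 27 of 77 respiratory chain genes (35.1%) had H3K4me3 in both and H3K27ac in neither, against 17.8% of 7739 genes. These shares describe the lists, and no test of the difference was made.

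The gap was present over the range of H3K4me3 strength. Among genes whose fl H3K4me3 lay in percentiles 75 to 100, H3K27ac was present in cKO at 71% of 31 respiratory chain genes and 90.6% of all genes, and in fl at 51.6% and 64.1%. In percentiles 50 to 75 the shares were 58.6% of 29 genes and 85% of all genes in cKO, and 34.5% and 54.2% in fl. In percentiles 25 to 50 they were 65% of 20 genes and 75.6% of all genes in cKO, and 40% and 39.4% in fl, where the chain was not below. In percentiles 0 to 25 they were 50% of 8 genes and 63.2% of all genes in cKO, and 0% and 21.3% in fl.

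**Figure D5:**
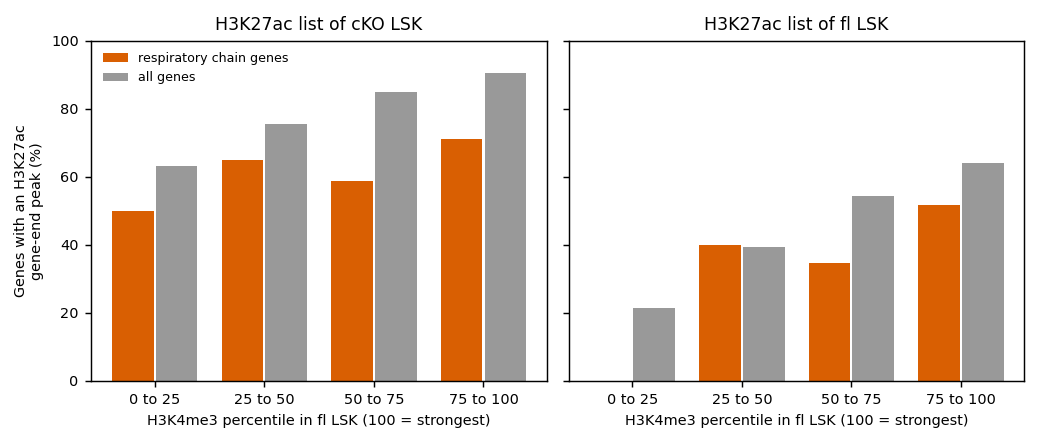
Share of genes with an H3K27ac gene-end peak (y axis, %) by the percentile of their H3K4me3 peak in the fl list (x axis), in the cKO list (left) and the fl list (right) of LSK cells, for respiratory chain genes (8, 20, 29 and 31 genes from low to high) and all genes. The bars of the chain are below those of all genes except in fl at percentiles 25 to 50, where they are 40% and 39.4%.

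The 31 genes with H3K4me3 and no H3K27ac in either list lay in every complex, with 19 in complex I, 2 in complex II, 3 in complex III, 2 in complex IV and 5 in complex V. Ndufaf1, Ndufaf5, Ndufaf7 and Sdhaf3 among them are assembly factors. In complex I they included the core subunits Ndufs3 and Ndufs7, and in complex V the peripheral stalk subunit Atp5pb and the c-ring genes Atp5g1 and Atp5g3. Atp5pb had H3K4me3 at percentile 96.5 in cKO and 86.1 in fl, and Ndufa7, an accessory subunit, at 92.2 and 93.3. Of the complex II subunits, Sdhc was among the 31, while Sdha, Sdhb and Sdhd carried H3K27ac in both genotypes. The windows of Atp5pb (with Wdr77) and Ndufa7 (with Kank3 and Rps28) are shared, so these H3K4me3 peaks cannot be assigned.

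The promoters were searched on both strands for the letters of 5 factors known for controlling nuclear genes of the chain or promoters in general. A match is a description of the letters and not a bound site. NRF1 core letters (GCGCATGC) were in 14.6% of the 82 promoters, against 3.94% of all 17492 and 6.76% of the 7333 with H3K4me3 in both. ETS letters (CCGGAAG), read by GABP, were in 26.8%, against 12.9% and 23.3%. YY1 letters (AAGATGGC) were in 13.4%, against 3.57% and 6.1%, and ERR letters (TCAAGGTCA) in 2.44%, against 0.377% and 0.3%. SP1 letters (GGGCGG) were in 47.6%, against 49.2% and 72.4%. The YY1 letters lay almost all in the 50 bases after the start, since the 250 bases before it held them in 1 promoter of 82 and the 300 bases in 11.

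By H3K27ac class, the counts of the ETS letters moved with the bases searched. Of the genes with H3K4me3 in both genotypes, 3 of 20 with H3K27ac in cKO only had them, 13 of 26 with H3K27ac in both, and 6 of 27 with none, over 300 bases. In the 250 bases before the start, 8 of the 26 with H3K27ac in both had them. There, counted whatever their H3K4me3, 3 of 21 with H3K27ac in cKO only and 5 of 34 with none had them. The NRF1 core was in 4 of 20, 4 of 26 and 4 of 27, and the SP1 letters in 9 of 20, 14 of 26 and 12 of 27. No difference between classes was tested. Over all genes with H3K4me3 in both, the shares with ETS letters in 300 bases were 21.3% for cKO only, 24.4% for both and 24% for neither. The CpG median was 20 for cKO only, 26 for both and 19 for neither in the chain, against 25, 25 and 16 over all genes.

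An example of each class shows the letters in place, with the searched motifs in capitals in the 250 bases before the start (RefSeq, GRCm38.p6, the gene's own strand). Ndufv2 had the strongest H3K27ac in cKO only, Cox6a1 had H3K27ac in both genotypes, and Atp5pb had strong H3K4me3 and no H3K27ac.
Ndufv2 (chr17:66101560-66101809, minus strand): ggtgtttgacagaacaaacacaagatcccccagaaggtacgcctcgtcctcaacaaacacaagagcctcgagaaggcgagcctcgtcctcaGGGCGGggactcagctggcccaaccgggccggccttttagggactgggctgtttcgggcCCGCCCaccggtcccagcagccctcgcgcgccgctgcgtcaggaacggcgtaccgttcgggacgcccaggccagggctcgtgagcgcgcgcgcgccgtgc
Cox6a1 (chr5:115348959-115349208, minus strand): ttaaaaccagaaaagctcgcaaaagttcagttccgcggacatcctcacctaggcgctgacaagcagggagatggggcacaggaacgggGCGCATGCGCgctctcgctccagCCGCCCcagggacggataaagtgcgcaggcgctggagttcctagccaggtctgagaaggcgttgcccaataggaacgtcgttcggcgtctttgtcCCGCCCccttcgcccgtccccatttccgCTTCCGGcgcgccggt
Atp5pb (chr3:105959264-105959513, minus strand): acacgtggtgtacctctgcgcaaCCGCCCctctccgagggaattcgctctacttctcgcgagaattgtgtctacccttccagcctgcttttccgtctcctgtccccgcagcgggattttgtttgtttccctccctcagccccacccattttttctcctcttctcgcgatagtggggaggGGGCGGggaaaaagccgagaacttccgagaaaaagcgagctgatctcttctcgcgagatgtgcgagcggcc
The Ndufv2 and Atp5pb stretches hold the SP1 letters on either strand. The Cox6a1 stretch holds an NRF1 core on each strand, overlapping each other, SP1 letters and, next to the start, ETS letters on the reverse strand. At Cox6a1, a widely expressed form of subunit 6a, H3K27ac stood at percentile 75.7 in cKO and 46.1 in fl, and H3K4me3 at 82.8 and 76.2.

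H3K9ac, another acetylation mark of active promoters, was found at few of these genes. In HSC it was in cKO only at 4 genes (1.01% of all genes), in fl only at 0 (0.608% of all genes) and in both at 0 (0.0503% of all genes). The 4 were Ndufa6, an accessory subunit (−log10 q 2.08, 196 bp), Ndufb2 (1.96, 216 bp), Ndufv1, the NADH-binding flavoprotein (1.7, 265 bp), and Uqcrfs1 (1.7, 340 bp). In the cKO H3K9ac list, whose median −log10 q was 2.48, they stood at percentiles 44.3, 42.6, 20.2 and 20.2 in that order. At a −log10 q of at least 5 the count was 0. Each summit lay 88 to 229 bp from a start, and each gene carried H3K27ac in cKO LSK cells, of which Ndufv1 and Uqcrfs1 in cKO only. With the cKO list shortened to the length of the fl list, Ndufa6 and Ndufb2 were left.

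DEK peaks were at the ends of 0 respiratory chain genes in replicates 1, 2 and 3, against 0.288%, 0.306% and 0.69% of all genes. In any of the 3 libraries the background was 1.21% of all genes and in at least 2 of them 0.064%, so a count of 0 among 100 is close to it. Away from the outer gene ends, replicate 1 had a peak 304 bp from the inner start of Atp5d (chr10:80141757-80142184, −log10 q 2.35, fold 4.22), overlapping the fl H3K4me3 peak. Replicates 2 and 3 had none there. Replicate 3 had a peak inside Sdhaf2 (−log10 q 4.22, fold 5.48), 18727 bp from a start, and the other replicates did not.

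Genes that work beside the complexes were counted in lists chosen for their function. Over all genes, H3K27ac was present at 42.5% in cKO and 21.9% in fl, and in cKO only at 20.9%, and no test was made of how the lists differ. Most genes of these lists carried H3K4me3 in both genotypes. Over all genes with H3K4me3 in both, the H3K27ac shares were 82% in cKO, 49.7% in fl and 32.9% in cKO only. Of 19 assembly factors of complex IV, 19 carried H3K4me3 in both genotypes, 12 carried H3K27ac in cKO and 11 in fl. Of 7 complex III assembly factors and partners, with the cytochrome Cyc1 among them, 5 and 4 carried H3K27ac, and of 3 complex V assembly factors 2 and 2. Of 13 citric acid cycle genes, 12 carried H3K27ac in cKO and 9 in fl. Of 14 genes for electron carriers, 10 carried it in cKO and 4 in fl, and the 6 in cKO only were Coq2, Coq3, Coq4, Coq5, Coq6 and Coq8a. These are genes of ubiquinone synthesis, which make up most of that list. Of its other ubiquinone genes, Coq7 and Coq9 carried H3K27ac in both genotypes, and Pdss1 and Pdss2 in neither. Of 16 regulators of mitochondrial biogenesis, 14 carried it in cKO and 9 in fl. Among these, Nrf1 and Yy1, whose letters were searched above, had H3K27ac in cKO only (−log10 q 22.7 and 24.2), and Gabpa and Esrra had it in both (26.7 in cKO and 5.89 in fl at Gabpa, 22.6 and 8.02 at Esrra). The Gabpa peak is the one already given for Atp5j, in their shared window. DEK had a gene-end peak in any library at 0 genes of these lists, against 1.21% of all genes.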

How the data were processed

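The members and gene lists were chosen with earlier results of these data known. The submitters' processing notes name Bowtie2, Picard, MACS2 and mm10. The sources used here give no versions, settings or control track. The authors deposited 1 peak list per library, with a score, a fold enrichment (a ratio over the caller's background) and a −log10 p-value and −log10 q-value per peak. Peak strengths were compared only within the same list. Row names of DEK replicate 3 carry a Flag stem, so its antibody is uncertain, and the labels were followed. The DEK replicates are separate samples, and nothing says whether they came from separate animals.

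Only nuclear chromosomes entered: 16 mitochondrial peaks and 12 irregular rows of the DEK lists, chosen after seeing the rows, were left out; those rows touched 0 members. A gene was marked where a peak overlapped by at least 1 bp the 1 kb on either side of a RefSeq GRCm38.p6 gene end, since the gene table gives no strand. Starts and strands came from the RefSeq promoter table, which held 82 of the 100 genes. Of these 100 genes, 60 have windows that overlap another gene's. Percentiles rank a gene's strongest peak by −log10 q among all peaks of its list. Named genes were those with an H3K9ac or DEK peak, those marked in 1 genotype only, those without H3K4me3, and the extremes of rank, width and rank difference; others are examples chosen after their values were seen. The values of 1 gene are not reported here, though it stays in the counts. No test was run, and the counting was tested on simulated data. Python 3.11.15, numpy 2.4.6, pandas 2.3.3 and matplotlib 3.10.9 were used. Alternatives were other windows, starts only, a −log10 q of at least 5, lists of equal length and each DEK library left out. Widths were also taken from the strongest peak, and ranks also by fold enrichment or among gene-end peaks only.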

Additional observations from a re-analysis of the deposited data

Results flagged for a closer look

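The subunit genes encoded in mitochondrial DNA lie outside the list of nuclear genes, and signal appeared there in data that no comparison used. The DEK lists of fl HSC held 5 mitochondrial peaks in replicate 1, 4 in replicate 2 and 7 in replicate 3, while the 6 histone lists held 0. The DEK peaks touched 7, 6 and 5 of the 13 mitochondrial subunit genes in replicates 1, 2 and 3. Their summed widths were 8295, 8917 and 4639 bp in that order. Whether peaks of such width would touch as many genes wherever they lay was not tested. ND1, COX1, ND5 and CYTB, which belong to complexes I, IV, I and III, were touched in every replicate. Fold enrichments were 1.48 to 3.2 in replicate 1, 1.64 to 2.65 in replicate 2 and 1.61 to 3.16 in replicate 3. No DEK library of cKO cells was analysed here, so no level in cells without DEK can be set beside these.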

How the results depend on the processing

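Of 90 values under alternative settings, 73 were within 1.5 times the reported count. The 17 others were as follows. With lists of equal length, H3K27ac was in cKO only at 11 genes and in fl only at 6, and H3K9ac in cKO only at 2. At a −log10 q of at least 5, H3K9ac in cKO only was 0 and H3K4me3 in fl only was 3 (Atp5d, Sdhaf3 and Sdhaf4). With annotated starts only, H3K4me3 in fl only was 0 and DEK touched 1 gene (Atp5d). With windows of 2 kb, DEK touched 1 gene (Ndufc1) and H3K9ac in fl only was 1 (Atp5b). With any peak in the gene counted, an alternative chosen after seeing the data, DEK touched 2 (Atp5d and Sdhaf2), H3K4me3 in fl only was 0, H3K27ac in fl only 2 (with Ndufa4l2) and H3K9ac in fl only 1 (Ndufa7). For the 40 genes whose windows no other gene shares, also chosen after seeing the data, H3K4me3 was in both at 32 and in fl only at 0, and H3K27ac was in cKO only at 8 and in both at 13, as fewer genes are counted. Leaving out any DEK library left the count of DEK genes at 0. No paired analysis was possible because each mark has 1 library per genotype and DEK was analysed in fl cells only.

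The read depth is unknown, so a gene without a peak was not called at that library's depth, and the mark is not shown to be absent. The cause of the longer H3K27ac list in cKO was not tested, and the counts in cKO only move with its length. Windows at both gene ends can hold a 3′ end and miss inner starts.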

Other observations

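Peaks of H3K27ac also lay inside genes of the chain that had no mark at their ends. Cox7b2, the testis form of subunit 7b, spans 105383 bp and had an inner H3K27ac peak in both genotypes. It had −log10 q 51.9 in cKO (chr5:71525729-71526415, percentile 94.2 of its list) and 34.3 in fl (chr5:71525748-71526364, percentile 92.9), and no H3K4me3 peak lay in the gene in either list. Ndufa4l2 had an inner H3K27ac peak in fl only, with −log10 q 9.41 and a width of 303 bp, at percentile 41.4.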
